A study of Mus musculus with 4 samples.

Results

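The endocannabinoid system was described through 6 genes: Cnr1, Dagla, Daglb, Mgll, Napepld and Faah. They were chosen by symbol, and each matched 1 row among the 32286 features counted. Nuclei had been isolated from frozen hemispheres of 14-day-old C57BL/6 mice (P14) and captured singly in 10x Genomics droplets with 3′ chemistry. The 2 libraries labelled Ago2 KO carried Slc17a6-Cre and 2 floxed alleles of Ago2 (Ago2 flox/flox). The 2 WT libraries carried Slc17a6-Cre with unaltered Ago2 (Ago2 wt/wt), so the Cre driver was shared by both groups. Ago2 is the Argonaute protein through which miRNAs silence their target mRNAs, and the design asked what its loss from VGLUT2-expressing excitatory neurons does in the brain. Slc17a6-Cre recombines in neurons that express, or have expressed, the vesicular glutamate transporter VGLUT2, so other cells of the same brains are not expected targets of the deletion.

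Endocannabinoids are lipid messengers made on demand from membrane phospholipids. They leave the cell that makes them and act largely on Cnr1, the CB1 cannabinoid receptor, a G protein-coupled receptor on axon terminals that lowers transmitter release. The messenger 2-arachidonoylglycerol (2-AG) is made by the diacylglycerol lipases Dagla and Daglb and broken down mainly by monoacylglycerol lipase, Mgll. Anandamide and related N-acylethanolamines can be made by the phospholipase D Napepld and are hydrolysed by fatty acid amide hydrolase, Faah. In the mature forebrain, CB1 is known to be dense on the terminals of one group of GABAergic interneurons, and in the cerebellum on the parallel fibres of granule cells, while Dagla is known to lie in the dendrites of the receiving neurons.

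Whole-library facts were as follows. The 4 libraries held 10845009 to 29317266 UMIs in 3472 to 6752 barcodes, any pair shared 3 to 10 barcodes, and 15450 of 17802 barcodes were kept. WT replicate 2 was the deepest library and held 5826 of the kept nuclei. The series text speaks of cortical cells, while nuclei with cerebellar markers were present. Clusters of nuclei were named from marker genes, so a class name means nuclei like that type. In 12 classes every library had at least 20 nuclei, and these classes were tested. The remaining nuclei lay in small classes or in clusters left without a name, which held 22.3% to 30.3% of the nuclei of a library. Ago2 was not lower in glutamatergic nuclei of the libraries labelled Ago2 KO: it stood at 106 and 102 CPM there, against 72.3 and 78.3 CPM in WT. Which exons of Ago2 were floxed is not given in the sources used here. Counts near the 3′ end do not check a deletion elsewhere in the gene, so the groups rest on their labels. The counts also hold a row for the Cre transgene, at 0 of 64709928 UMIs. Slc17a6 itself reached 159 and 198 CPM in libraries labelled Ago2 KO and 135 and 112 CPM in WT in a small cluster of 101 nuclei named for it. In the main glutamatergic class, which carries cortical and hippocampal markers, it reached only 19.5 and 18.4 CPM in libraries labelled Ago2 KO and 16.6 and 10.0 CPM in WT.

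Because Ago2 acts through miRNAs, the 3′ UTRs of the 6 genes were read for matches to 11 miRNAs that are known from the brain. An 8mer was the reverse complement of miRNA bases 2 to 8 (the seed) followed by an A. A 7mer was that complement whatever base followed, so each 8mer also counted as a 7mer. The 3′ UTRs measured 1818 bases in Faah, 2327 in Napepld, 2399 in Dagla, 2543 in Daglb, 2584 in Mgll and 3796 in Cnr1, all longer than the median of 961 bases over 21004 genes. Only the sense strand of the 3′ UTR was read. Among the 8mer sites found, 4, in Cnr1, Mgll and Napepld, are printed 5′ to 3′ within 30 bases, with the 8mer in capitals, since a miRNA on Ago2 pairs with its target through such a stretch.
Cnr1, miR-128-3p match: atcttagtgtaCACTGTGAccactgtgcag
Cnr1, miR-338-3p match: gagggctccggATGCTGGAgtattagtaac
Mgll, miR-137-3p match: cacttagcgccAGCAATAActggggctcac
Napepld, miR-218-5p match: aaatgacctatAAGCACAAgtgtacctttt
The matching mature miRNAs, from RefSeq, are printed with the seed in capitals, so that the pairing can be read.
miR-128-3p: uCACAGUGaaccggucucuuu
miR-338-3p: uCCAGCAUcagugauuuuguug
miR-137-3p: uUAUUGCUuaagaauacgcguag
miR-218-5p: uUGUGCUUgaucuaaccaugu
Of the genes with a 3′ UTR, 5.14% held the 8mer CACTGTGA of miR-128-3p, 3.40% the ATGCTGGA of miR-338-3p, 4.08% the AGCAATAA of miR-137-3p and 3.93% the AAGCACAA of miR-218-5p. The 7mer AAGCACA of miR-218-5p lay in the 3′ UTR of all 6 genes, against 13.8% of all genes, and the 7mer CACTGTG of miR-128-3p in 5 of the 6, against 18.9%. These were the highest counts among the 11 miRNAs, and the 7mers of miR-26a-5p and miR-219a-5p lay in 0 of the 6. The shares over all genes were not matched for length, and the 3′ UTRs of the 6 genes are longer than the median. Faah held no 8mer of the 11 and a 7mer of miR-9-5p and of miR-218-5p, and Daglb held 7mers of miR-128-3p and miR-218-5p. These matches describe letters only, since binding was not measured. In the GRCm38 build Cnr1 lies on chromosome 4 from 33924593 to 33948831 (plus strand), Dagla on chromosome 19 from 10245265 to 10304877 (minus strand), Daglb on chromosome 5 from 143464584 to 143505942 (plus strand), Mgll on chromosome 6 from 88724412 to 88828360 (plus strand), Napepld on chromosome 5 from 21662901 to 21701396 (minus strand) and Faah on chromosome 4 from 115967145 to 116017926 (minus strand).

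Where each gene was read came first. UMIs were summed per library and class and given as CPM, the UMIs of a gene scaled to all UMIs of that sum, so a value compares 1 gene between classes and not 1 gene with another. Each class was then set against the mean of the other 11 by the edgeR quasi-likelihood test, with the library as a block and adjustment over 9506 genes in each class. Of 72 pairs of gene and class, 45 passed at an adjusted p under 0.05, 26 higher and 19 lower. Over all genes and the same 12 classes, 40.9% of contrasts passed, 22.1% higher and 18.8% lower. The 6 genes had 6 different profiles.

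**Figure D1:**
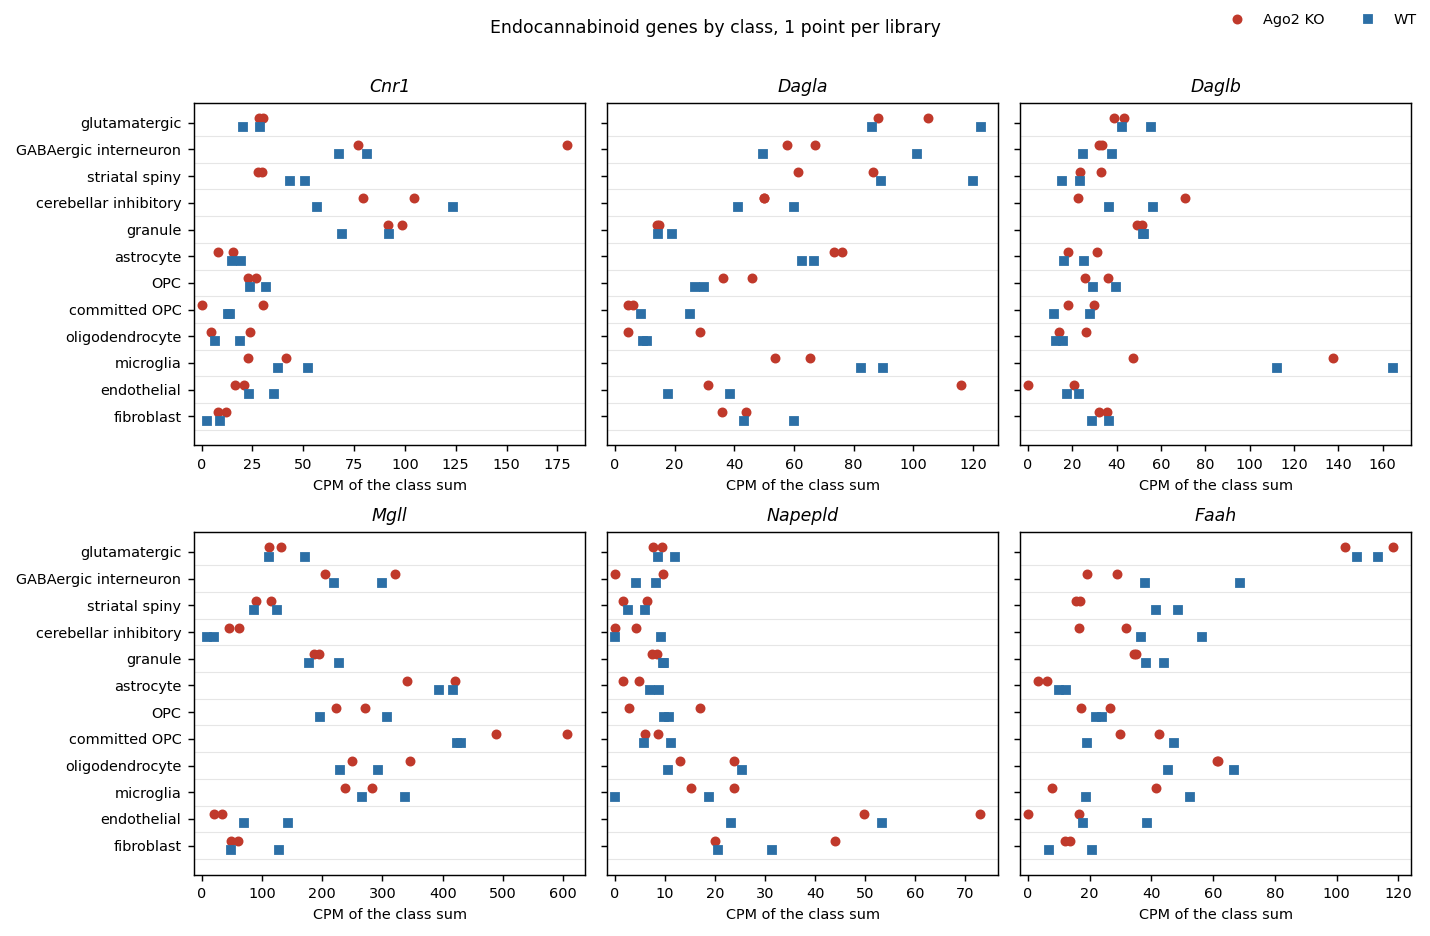
Level of each of the 6 genes in the 12 tested classes, as CPM of the summed UMIs of a class; each circle is 1 library labelled Ago2 KO and each square 1 WT library, and each panel has its own linear axis. Faah stands out in glutamatergic nuclei and Mgll in committed OPCs, with every library of the top class above every other class, while the libraries of Cnr1, Dagla, Daglb and Napepld overlap between classes.

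Cnr1, the receptor, was highest in GABAergic interneurons, cerebellar inhibitory neurons and granule neurons. GABAergic interneurons had 76.8 and 179.7 CPM in libraries labelled Ago2 KO and 67.5 and 81.5 CPM in WT. Cerebellar inhibitory neurons had 105 and 79.2 CPM in libraries labelled Ago2 KO and 56.5 and 124 CPM in WT, and granule neurons 98.4 and 91.4 CPM in libraries labelled Ago2 KO and 69.1 and 92.1 CPM in WT. These 3 classes overlapped with each other, and the lowest granule library lay above every library of the 9 classes below. The interneuron library labelled Ago2 KO, replicate 2, with 33 nuclei, stood apart, and without it cerebellar inhibitory neurons ranked first at 94.9 CPM. Relative to the mean of the other classes, the log2 difference of Cnr1 was 1.86 ± 0.22 (SE) in cerebellar inhibitory neurons, 1.82 ± 0.21 in GABAergic interneurons and 1.79 ± 0.14 in granule neurons, with edgeR adjusted p of 6.99e-11, 2.53e-11 and 2.64e-18.

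Below these came microglia at 38.6 ± 12.2, striatal spiny neurons at 38 ± 11.2, glutamatergic nuclei at 26.8 ± 4.48, OPCs at 26.4 ± 3.93 and endothelial nuclei at 24 ± 8.18 CPM (mean ± SD over 4 libraries). Astrocytes at 14.5 ± 4.65, committed OPCs at 14.4 ± 12.4, oligodendrocytes at 13.3 ± 9.39 and fibroblasts at 7.99 ± 3.92 CPM closed the order, and neighbours among these 9 classes overlapped. Fibroblasts were lowest, with a log2 difference of -2.32 ± 0.39 (edgeR adjusted p = 7.02e-07). Astrocytes, committed OPCs and oligodendrocytes were lower than the mean class as well, at -1.06 ± 0.25, -1.20 ± 0.35 and -1.07 ± 0.34 (SE), though the committed OPC call was lost without WT replicate 2 (adjusted p = 0.104). Striatal spiny neurons passed as higher at 0.65 ± 0.21, a call that was lost without WT replicate 2 (log2 0.46, adjusted p = 0.235). Granule neurons held 33.6% to 41.3% of the Cnr1 UMIs of a library, against 13.8% to 17.8% of all UMIs, the largest share of any class.

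Dagla, the main 2-AG synthase of neurons, followed a different map. Glutamatergic nuclei had 105 and 88.1 CPM in libraries labelled Ago2 KO and 122 and 86 CPM in WT, and striatal spiny neurons had 61.4 and 86.5 CPM in libraries labelled Ago2 KO and 119.9 and 89.2 CPM in WT. Both classes overlapped, and both were above the mean class, by 1.65 ± 0.11 and 1.44 ± 0.15 on the log2 scale (SE, edgeR adjusted p = 5.41e-21 and 4.37e-13). Astrocytes passed too, at 0.82 ± 0.15, as did GABAergic interneurons at 0.78 ± 0.19 and microglia at 0.65 ± 0.23, the last lost without WT replicate 2 (log2 0.38, adjusted p = 0.458) and without the replicate 2 labelled Ago2 KO (0.0703). In level, microglia stood at 72.8 ± 16.4, astrocytes at 69.7 ± 6.07, GABAergic interneurons at 68.9 ± 22.8, endothelial nuclei at 50.9 ± 44.3 and cerebellar inhibitory neurons at 50.3 ± 7.71 CPM. Neighbours in this middle range overlapped. The glutamatergic marker Slc17a7 stood at 65 ± 28.9 CPM in microglia, against 175 ± 15.5 CPM in glutamatergic nuclei. The part of RNA from other cells in the microglial values of Dagla (53 UMIs) and Cnr1 (29 UMIs) was not tested.

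The low end of Dagla was set apart only in part, since oligodendrocytes, at up to 28.4 CPM, overlapped with OPCs, at 26.9 CPM or more. Fibroblasts had 45.8 ± 10.2 and OPCs 34.8 ± 8.44 CPM, and every OPC library lay above every granule neuron library, where Dagla averaged 15.7 ± 2.34 CPM. Granule neurons, oligodendrocytes at 13.3 ± 10.5 and committed OPCs at 11.1 ± 9.55 CPM overlapped at the bottom, with log2 differences of -1.42 ± 0.16, -1.82 ± 0.30 and -1.87 ± 0.31 (SE). Relative to the mean class, granule neurons were thus high in the receptor and low in this synthase. In the Purkinje cluster, whose cells receive granule axons, Dagla reached 1133 CPM in the replicate 1 labelled Ago2 KO, against 775 and 517 CPM in WT. This cluster held 15 nuclei and 95 Dagla UMIs, none of its nuclei came from the replicate 2 labelled Ago2 KO, and it entered no test. Each of its 3 values was above every value of every tested class.

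Other clusters outside the tested classes also held much Dagla. The Slc17a6 cluster had 168 and 211 CPM in libraries labelled Ago2 KO and 129.6 and 129 CPM in WT. An unnamed cluster of 98 nuclei, led by Gdpd4, Frzb and Sntb1, had 114 and 198 CPM in libraries labelled Ago2 KO and 194 and 164 CPM in WT from 44 UMIs. Within the glutamatergic class, the 385 nuclei of the Hs3st4 and Col5a1 cluster had 136 and 107 CPM in libraries labelled Ago2 KO and 144 and 91.4 CPM in WT, and the 1579 nuclei of the larger glutamatergic cluster 97.5 and 83.4 CPM in libraries labelled Ago2 KO and 118 and 84.8 CPM in WT. Each library was higher in the first of these clusters than in the second, but the libraries of the 2 clusters overlapped.

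Daglb, the diacylglycerol lipase known for making 2-AG in macrophages and microglia of the mouse, was highest in microglia. Microglia had 138 and 47.5 CPM in libraries labelled Ago2 KO and 112 and 165 CPM in WT, from 85 UMIs. The replicate 2 labelled Ago2 KO was the low one and fell among the other classes, and without it microglia lay above every other class in the remaining 3 libraries. The log2 difference of microglia from the mean class was 1.72 ± 0.22 (SE, edgeR adjusted p = 1.04e-09). Granule neurons at 51.2 ± 1.34, cerebellar inhibitory neurons at 46.7 ± 21.3 and glutamatergic nuclei at 45.1 ± 7.34 CPM followed, and granule and glutamatergic nuclei passed as higher at 0.81 ± 0.14 and 0.77 ± 0.14. Cerebellar inhibitory neurons passed by a narrow margin (adjusted p = 0.0498), and that call was lost under 6 of the 9 alternatives.

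Neighbours in the rest of the Daglb order overlapped. It ran through fibroblasts at 33.2 ± 3.63, OPCs at 32.8 ± 6.28, GABAergic interneurons at 32.1 ± 5.51, striatal spiny neurons at 23.7 ± 7.19 and astrocytes at 22.7 ± 6.84 CPM. Committed OPCs at 21.9 ± 8.53, oligodendrocytes at 17.3 ± 6.10 and endothelial nuclei at 15.4 ± 10.5 CPM were last. Oligodendrocytes, endothelial nuclei, committed OPCs and astrocytes were lower than the mean class, at -0.98 ± 0.30, -1.26 ± 0.47, -0.72 ± 0.29 and -0.56 ± 0.21 on the log2 scale (SE), and each of these 4 calls was lost without at least 1 library. The 2 lipases thus parted in granule neurons, with log2 differences of -1.42 ± 0.16 for Dagla and 0.81 ± 0.14 for Daglb, and in striatal spiny neurons, with 1.44 ± 0.15 and -0.24 ± 0.22, where the Daglb value did not pass.

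**Figure D2:**
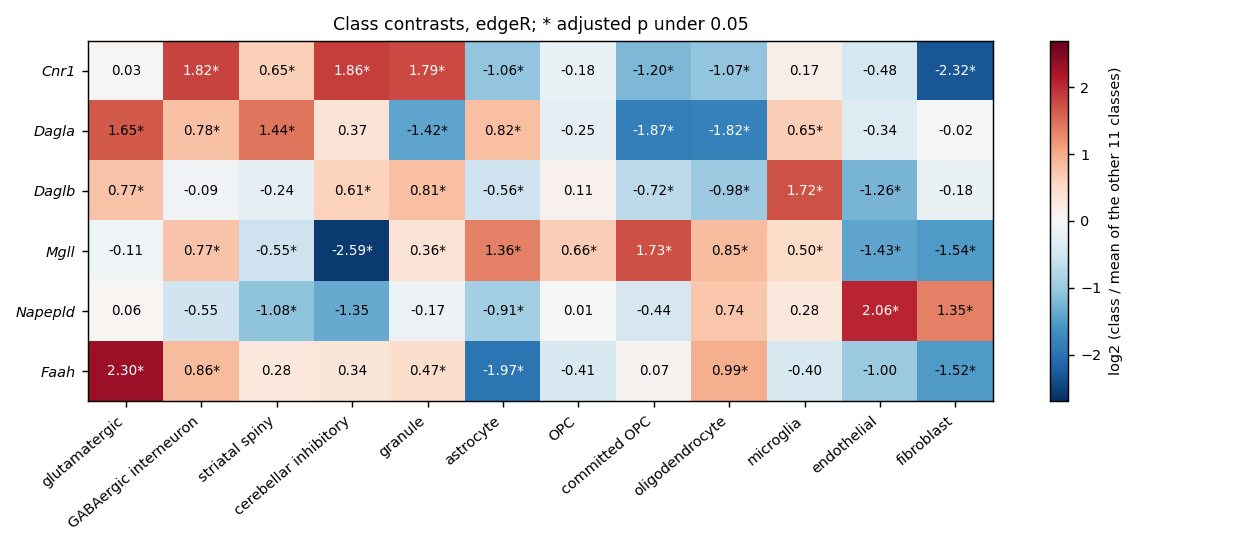
Log2 difference of each class from the mean of the other 11 classes for the 6 genes, from the edgeR fit over 4 libraries; red is higher, blue is lower and an asterisk marks an adjusted p under 0.05. Each gene has its own profile: Cnr1 peaks in inhibitory and granule neurons, Dagla in glutamatergic and spiny neurons, Daglb in microglia, Mgll in committed OPCs and astrocytes, Napepld in endothelial nuclei and Faah in glutamatergic nuclei.

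Mgll, which ends 2-AG signals, was highest in glial classes. Committed OPCs, the cells about to become oligodendrocytes, had 606 and 488 CPM in libraries labelled Ago2 KO and 429.8 and 424 CPM in WT. Astrocytes had 341 and 421 CPM in libraries labelled Ago2 KO and 417 and 393 CPM in WT. All 4 libraries of committed OPCs lay above every library of the other classes, while the lowest astrocyte library lay below the highest of the oligodendrocytes. The log2 differences from the mean class were 1.73 ± 0.13 and 1.36 ± 0.12 (SE, edgeR adjusted p = 8.38e-19 and 2.31e-16). With doublets kept, or with no mitochondrial maximum, the committed OPC libraries overlapped with astrocytes.

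Microglia at 281 ± 41.9, oligodendrocytes at 279 ± 51.8, GABAergic interneurons at 262 ± 57.6 and OPCs at 249 ± 49.5 CPM formed an overlapping group below, and all 4 passed as higher than the mean class, microglia not without WT replicate 1 (edgeR adjusted p = 0.0534) or WT replicate 2 (0.0565). Granule neurons followed at 197 ± 21.1 CPM, separated from glutamatergic nuclei at 132 ± 27.8 CPM. Striatal spiny neurons at 104 ± 18.5, fibroblasts at 71.1 ± 38.4 and endothelial nuclei at 66.5 ± 54.7 CPM were lower than the mean class, at -0.55 ± 0.16, -1.54 ± 0.19 and -1.43 ± 0.27 on the log2 scale (SE). Cerebellar inhibitory neurons came last at 34.6 ± 24 CPM, with a log2 difference of -2.59 ± 0.25 (SE, edgeR adjusted p = 1.21e-13). The inhibitory classes therefore split for Mgll: forebrain interneurons were high and cerebellar inhibitory neurons the lowest of the 12.

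The 2 clusters of astrocytes differed in Mgll. The larger, 781 nuclei led by Slc1a2, Prdm16 and Dio2, had 549 and 549 CPM in libraries labelled Ago2 KO and 591 and 517 CPM in WT. The smaller, 467 nuclei led by Slc6a11 and Atp13a4, had 143 and 281 CPM in libraries labelled Ago2 KO and 187 and 193 CPM in WT. All 4 libraries of the first lay above all 4 of the second. For Dagla the 2 clusters were ordered the other way, at 69.9 and 68.6 CPM in libraries labelled Ago2 KO and 50.7 and 58.2 CPM in WT in the larger and 82 and 78.7 CPM in libraries labelled Ago2 KO and 78.9 and 80.4 CPM in WT in the smaller. Among committed OPCs, the 213 nuclei led by Bmp4 and Bcas1 had 691 and 582 CPM in libraries labelled Ago2 KO and 549.9 and 489 CPM in WT, above the 198 nuclei led by Casr and Cldn14 within each library, at 551 and 413 CPM in libraries labelled Ago2 KO and 322 and 350.0 CPM in WT. These differences between clusters are described without a test, since the clusters were cut from the same nuclei.

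Napepld had 552 UMIs in all kept nuclei. Among the tested classes, endothelial nuclei and fibroblasts had the highest mean levels. Outside these classes, the Slc17a6 cluster of neurons had 17.7 and 25.6 CPM in libraries labelled Ago2 KO and 15.5 and 19.1 CPM in WT. These values, from 17 UMIs, overlapped with both endothelial nuclei and fibroblasts. Endothelial nuclei had 49.7 and 72.9 CPM in libraries labelled Ago2 KO and 23.1 and 53.4 CPM in WT, from 22 UMIs. Fibroblasts had 19.9 and 44 CPM in libraries labelled Ago2 KO and 31.3 and 20.6 CPM in WT. These classes overlapped with each other, and both were above the mean class, by 2.06 ± 0.42 and 1.35 ± 0.31 on the log2 scale (SE, edgeR adjusted p = 4.51e-05 and 1.59e-04). Oligodendrocytes at 18.2 ± 7.44, microglia at 14.4 ± 10.2, OPCs at 10.1 ± 5.76 and glutamatergic nuclei at 9.39 ± 1.89 CPM came next and did not pass. Granule neurons at 8.82 ± 1.11, committed OPCs at 7.91 ± 2.49, GABAergic interneurons at 5.52 ± 4.33 and cerebellar inhibitory neurons at 3.33 ± 4.35 CPM did not pass either. Astrocytes at 5.57 ± 3.11 and striatal spiny neurons at 4.17 ± 2.37 CPM passed as lower, and both calls were lost in at least 3 of the 4 fits that left out a library. All neighbours in the Napepld order overlapped.

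Faah, which hydrolyses anandamide, was highest in glutamatergic neurons. Glutamatergic nuclei had 118 and 103 CPM in libraries labelled Ago2 KO and 113 and 107 CPM in WT, and all 4 libraries lay above every library of the other 11 classes. The log2 difference from the mean class was 2.30 ± 0.13 (SE, edgeR adjusted p = 8.96e-25). Glutamatergic nuclei held 44% to 50.1% of the Faah UMIs of a library, against 16.7% to 26.2% of all UMIs. Oligodendrocytes ranked second at 58.8 ± 9.32 CPM, overlapped with the interneurons and passed as higher at 0.99 ± 0.24 (SE, edgeR adjusted p = 3.43e-04).

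GABAergic interneurons at 38.7 ± 21.4, granule neurons at 38 ± 4.48, cerebellar inhibitory neurons at 35.4 ± 16.4, committed OPCs at 34.7 ± 12.8 and striatal spiny neurons at 30.6 ± 16.9 CPM overlapped. The interneuron call, a log2 difference of 0.86 ± 0.23, rested on WT replicate 2: without it the difference was 0.02 and did not pass. Granule neurons passed at 0.47 ± 0.16, which also missed the threshold without that library (adjusted p = 0.0829). Microglia at 30.1 ± 20.5, OPCs at 22.5 ± 3.96, endothelial nuclei at 18.2 ± 15.8, fibroblasts at 13.4 ± 5.80 and astrocytes at 7.95 ± 4.01 CPM ended the order. Fibroblasts and astrocytes were lower than the mean class, at -1.52 ± 0.34 and -1.97 ± 0.29 on the log2 scale (SE, edgeR adjusted p = 1.49e-04 and 2.15e-08). Astrocytes, the second class for Mgll, were thus the lowest for Faah.

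Faah also varied inside classes. In granule neurons, the 2865 nuclei of the cluster led by Gabra6 and Fat2, markers of mature granule neurons, had 43.6 and 39.1 CPM in libraries labelled Ago2 KO and 48.6 and 52.6 CPM in WT. The 1257 nuclei of the other granule cluster had 16.7 and 24.1 CPM in libraries labelled Ago2 KO and 14.3 and 18.5 CPM in WT, below all 4 libraries of the first. For Cnr1 the 2 granule clusters overlapped, at 98.5 and 95.3 CPM in libraries labelled Ago2 KO and 70.7 and 93.2 CPM in WT in the Gabra6 cluster and 98.3 and 80.5 CPM in libraries labelled Ago2 KO and 65.5 and 88.8 CPM in WT in the other. In glutamatergic nuclei the larger cluster had 126 and 111 CPM in libraries labelled Ago2 KO and 118 and 109 CPM in WT, above all libraries of the Hs3st4 cluster at 85.6 and 69.2 CPM in libraries labelled Ago2 KO and 93.5 and 95.4 CPM in WT. Dagla was ordered the other way between these 2 clusters, as given above.

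**Figure D3:**
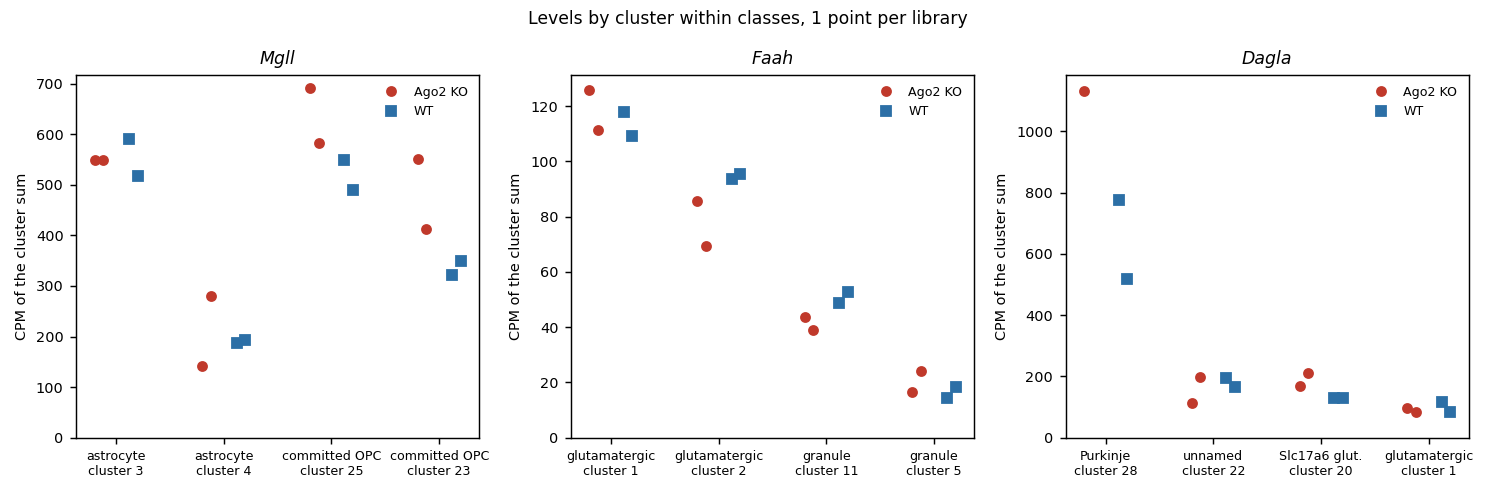
Levels of Mgll, Faah and Dagla in single clusters, as CPM of the summed UMIs of a cluster; circles are libraries labelled Ago2 KO and squares WT libraries, and each axis starts at 0. Mgll separates the 2 astrocyte clusters, Faah separates the 2 granule clusters, and Dagla in the 15 Purkinje nuclei lies above all other clusters shown, with no nuclei from 1 library labelled Ago2 KO.

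Likeness of pattern was measured over the 21 clusters with at least 100 nuclei, as Pearson's r of log2(CPM + 1) against 14345 genes with at least 10 CPM in at least 1 cluster. Clusters share libraries and depth, so r is a description. The closest genes were Pld5 (r = 0.85), Nos1 (r = 0.85) and Kctd8 (r = 0.83) for Cnr1, Sorcs2 (r = 0.88), Camk1d (r = 0.86) and Mgat4c (r = 0.84) for Dagla and Tubgcp6 (r = 0.84), Gtf2ird2 (r = 0.81) and Slc7a8 (r = 0.80) for Daglb. They were Prr11 (r = 0.76), Synrg (r = 0.70) and Gm26588 (r = 0.69) for Mgll, Slc25a24 (r = 0.84), Smtn (r = 0.83) and Sav1 (r = 0.81) for Napepld and Adap1 (r = 0.84), Bop1 (r = 0.84) and Usp30 (r = 0.82) for Faah. No member was among the 3 closest genes of another, and r between 2 members ran from -0.29 (Dagla and Mgll) to 0.37 (Dagla and Daglb).

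The genotypes were compared next, within each class, to ask whether the genes of the system differ in the libraries labelled Ago2 KO. The edgeR quasi-likelihood test was fitted on all genes of a class, and 43 of the 72 pairs of gene and class passed the filter on low counts. None of these 43 passed an adjusted p under 0.05, where 0.0491% of all gene tests in the 12 classes did. At an unadjusted p under 0.05 there were 3 of the 43 pairs, against 4407 of the 73292 gene tests in the 12 classes. DESeq2 called 0 of the 67 pairs it tested. In 19 of the 72 pairs the groups did not overlap, 15 with lower values in the libraries labelled Ago2 KO and 4 with higher. Of the 72 pairs, 29 were under the filter on low counts. Among the lower pairs these were Faah in GABAergic interneurons, cerebellar inhibitory neurons, astrocytes and endothelial nuclei. Cnr1 and Mgll in endothelial nuclei, Dagla in committed OPCs and Napepld in astrocytes were under it too. All 4 higher pairs had passed it. Over all genes past the filter 35.2% did not overlap, 16.2% with lower and 19% with higher values in the libraries labelled Ago2 KO. By class this share was 33.9% in glutamatergic nuclei, 34.4% in GABAergic interneurons, 35.3% in striatal spiny neurons, 35.6% in cerebellar inhibitory neurons, 34.9% in granule neurons and 37.6% in astrocytes. It was 35.3% in OPCs, 34% in committed OPCs, 35.6% in oligodendrocytes, 32.9% in microglia, 42.1% in endothelial nuclei and 34% in fibroblasts. With 2 libraries in each group an exact two-sided permutation test cannot go below p = 0.333. The labels do not say that the libraries came from separate animals, so every p measures the spread between libraries.

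**Figure D4:**
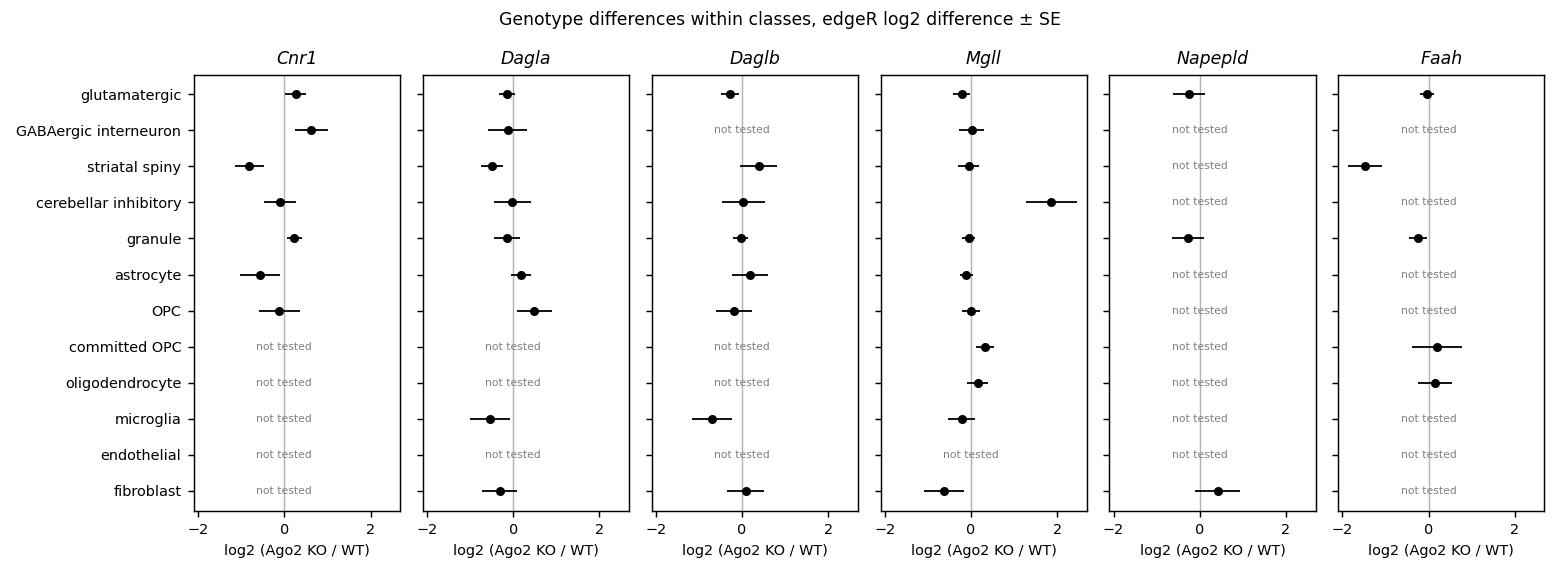
Log2 difference between libraries labelled Ago2 KO and WT libraries, with its SE from the edgeR fit, for the 43 pairs of gene and class that passed the filter on low counts; pairs under the filter are written as not tested. No point passed an adjusted p under 0.05; Faah in striatal spiny neurons at -1.49 and Mgll in cerebellar inhibitory neurons at 1.87 lie farthest from 0.

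In glutamatergic nuclei all 6 genes were tested, none passed, where 0.00901% of genes did, and all 6 had overlapping groups. Faah averaged 111 ± 11 CPM in libraries labelled Ago2 KO and 110.0 ± 4.62 CPM in WT (SD, n = 2 each), from 390 and 971 UMIs. Its log2 difference was -0.04 (SE 0.15, adjusted p = 0.991) by edgeR. In the same class Cnr1 averaged 29.1 ± 1.46 CPM in libraries labelled Ago2 KO and 24.4 ± 5.92 CPM in WT, and Dagla 96.4 ± 11.7 CPM in libraries labelled Ago2 KO and 104 ± 25.8 CPM in WT. Mgll averaged 122 ± 14.2 CPM in libraries labelled Ago2 KO and 141 ± 42.2 CPM in WT. Daglb averaged 41.1 ± 3.02 CPM in libraries labelled Ago2 KO and 49.1 ± 9.41 CPM in WT, and Napepld 8.52 ± 1.34 CPM in libraries labelled Ago2 KO and 10.3 ± 2.43 CPM in WT. On data simulated from these libraries, the same fit in glutamatergic nuclei recovered 57.6% of genes raised 2-fold and 100% of genes raised 4-fold. The simulation gave all genes a common spread and lowered none, so it cannot give the recovery for these 6 genes.

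Nuclei that read Slc17a6 itself are closer to the target of the Cre driver. In the Slc17a6 cluster, Mgll had 150.5 and 141 CPM in libraries labelled Ago2 KO and 192 and 217 CPM in WT, and Dagla 168 and 211 CPM in libraries labelled Ago2 KO and 129.6 and 129 CPM in WT. The groups did not overlap for either gene, as for 35.7% of the genes tested there, and neither gene passed (edgeR adjusted p = 0.893 and 0.929). Faah was at 53.1 and 89.6 CPM in libraries labelled Ago2 KO and 62.2 and 64.4 CPM in WT and overlapped. This cluster was tested outside the main set because 1 library held only 18 of its nuclei. A larger unnamed cluster of 1620 nuclei, led by Glra1, Ebf2 and Baiap3, also read Slc17a6, at 94.7 and 74.8 CPM in libraries labelled Ago2 KO and 60.3 and 59.8 CPM in WT. All 6 genes were tested there, all 6 overlapped, and the smallest edgeR adjusted p was 0.999. Of the 12547 genes tested in that cluster, 32.1% did not overlap and 0% passed.

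Of the tested pairs of gene and class, Faah in striatal spiny neurons had the smallest unadjusted p by edgeR (0.00127). In striatal spiny neurons Faah had 8 and 9 UMIs in libraries labelled Ago2 KO and 19 and 48 UMIs in WT, or 16.9 and 15.6 CPM in libraries labelled Ago2 KO and 48.5 and 41.6 CPM in WT. Both libraries labelled Ago2 KO were below both WT libraries, as were those of 14% of the genes tested in the class. The log2 difference was -1.49 (SE 0.39, adjusted p = 0.370) by edgeR, so it did not pass, where 0.0462% of genes did. GABAergic interneurons had 28.8 and 19.3 CPM in libraries labelled Ago2 KO, from 6 and 3 UMIs, against 38 and 68.7 CPM in WT, from 9 and 75 UMIs. Cerebellar inhibitory neurons had 31.9 and 16.7 CPM in libraries labelled Ago2 KO against 56.5 and 36.6 CPM in WT. The unnamed cluster 8, which reads Dlx1 and Dlx6os1, had 13 and 15.3 CPM in libraries labelled Ago2 KO against 21.5 and 20.2 CPM in WT. In each of these 4 sets the groups did not overlap and the libraries labelled Ago2 KO were the lower ones, but the interneurons and the cerebellar inhibitory neurons were under the filter on low counts, and cluster 8 did not pass, where 0.013% of genes did (edgeR adjusted p = 0.997). Lower values without overlap were seen for 13.5% of the genes tested in interneurons, 15.3% in cerebellar inhibitory neurons and 14% in cluster 8. Lower Faah without overlap was not limited to inhibitory nuclei. It was also seen in granule neurons and, under the filter, in astrocytes, endothelial nuclei and cluster 16. With no filter on low counts the log2 difference was -1.26 (SE 0.65) in astrocytes and -2.03 (SE 1.41) in endothelial nuclei. Glutamatergic nuclei, OPCs, committed OPCs, oligodendrocytes, microglia and fibroblasts overlapped.

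The 4 inhibitory sets were then summed, a step chosen after their values were seen. Faah had 31 and 25 UMIs in libraries labelled Ago2 KO and 56 and 162 UMIs in WT in this sum, or 18.5 and 16 CPM in libraries labelled Ago2 KO and 38.1 and 42.4 CPM in WT. The groups did not overlap, as for 15.3% of genes with the libraries labelled Ago2 KO lower. The log2 difference was -1.25 (SE 0.24, adjusted p = 0.984) by edgeR, and 0% of the 10711 genes passed. It passed with no filter on low counts (edgeR adjusted p = 0.00795), where 43 of 21866 genes did. It also passed without the replicate 1 and without the replicate 2 labelled Ago2 KO. Those fits had a lone library in that group, and other genes passed there too. Faah in this sum did not pass under the other 5 alternatives, DESeq2 among them.

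**Figure D5:**
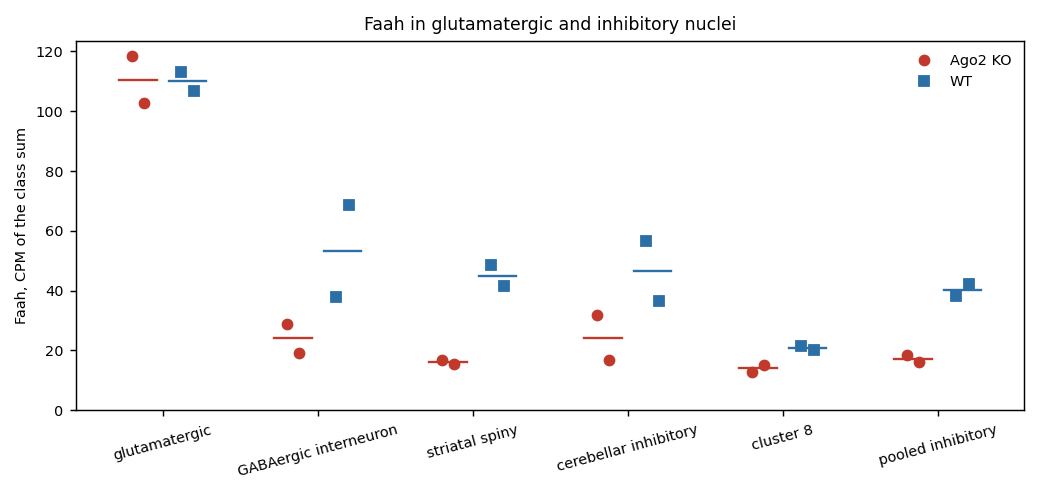
Faah in glutamatergic nuclei, in 4 sets of inhibitory nuclei and in their sum, as CPM of summed UMIs; circles are the 2 libraries labelled Ago2 KO, squares the 2 WT libraries, and lines their means. The groups overlap in glutamatergic nuclei near 110.3 CPM, and the libraries labelled Ago2 KO lie below WT in each inhibitory set.

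Whether the Faah difference differed between inhibitory and glutamatergic neurons was tested as an interaction, the genotype difference in an inhibitory set minus that in glutamatergic nuclei, with the library as a block. For GABAergic interneurons the Faah interaction was -1.35 (SE 0.50, adjusted p = 0.713) by edgeR. Without WT replicate 2 the Faah interaction was -0.63. The filter on low counts was applied here to both classes joined. Faah, Daglb and Napepld were under it in the interneurons alone, so they entered this fit only with the glutamatergic nuclei joined. In striatal spiny neurons and in the pooled sum this held for Napepld. Of the 6 genes 0 passed, where 0.0267% of all genes did. An unadjusted p under 0.05 was seen for 1 of the 6, against 589 of 11231 genes. For striatal spiny neurons, added after the values were seen, the Faah interaction was -1.45 (SE 0.36, adjusted p = 0.291) by edgeR. Again 0 of 6 genes passed, where 0.00918% of all genes did. An unadjusted p under 0.05 was seen for 2 of the 6, against 647 of 10894 genes. For the pooled inhibitory sum the Faah interaction was -1.22 (SE 0.24, adjusted p = 0.127) by edgeR, with 0% of all genes passing. This last value passed with no filter on low counts (edgeR adjusted p = 0.00904), where 25 of 23557 genes did. It also passed without WT replicate 1, a fit with a lone WT library, where other genes passed too. On simulated data, with a common spread for all genes, the striatal interaction recovered only 36% of genes raised 4-fold.

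Marker levels of other cells were read in the same nuclei. Of 10 oligodendrocyte markers, 6 were lower in both libraries labelled Ago2 KO in the pooled inhibitory sum, against 15.3% of genes tested there. The 10 together had 102 and 92.1 CPM there, against 197 and 137 CPM in WT. In striatal spiny neurons 3 were lower, against 14% of genes, with sums of 89 and 79.6 CPM against 189 and 127 CPM in WT. In GABAergic interneurons 2 were lower and 1 higher, against 13.5% of genes lower. The sums overlapped there, at 110 and 51.3 CPM against 135 and 88 CPM in WT. Cerebellar inhibitory neurons had 4 lower and 2 higher, against 15.3% and 20.3% of genes. Cluster 8 had 5 lower and 0 higher, against 14% and 17.6% of genes. Oligodendrocytes are the second class for Faah. Of 10 markers of glutamatergic neurons, the first class for Faah, 2 were lower and 2 higher in striatal spiny neurons of the libraries labelled Ago2 KO, with sums of 275 and 305 CPM against 342 and 311 CPM in WT. The lower ones were Slc17a7 and Nrn1, and the higher ones Fezf2 and Cux2, against 14% of genes lower and 21.3% higher in that class. In cerebellar inhibitory neurons 1 of these 10 markers was lower and 5, Slc17a7 among them, were higher, against 15.3% and 20.3% of genes. Their sums there were 459.6 and 500.4 CPM in libraries labelled Ago2 KO against 396 and 368 CPM in WT. In GABAergic interneurons 3 of the 10 glutamatergic markers were lower and 0 higher, against 13.5% and 20.9% of genes. In the pooled sum 2 were lower and 1 higher, against 15.3% and 16.7% of genes. None of the 10 markers of either list was at 0 in all 4 libraries of striatal spiny neurons or of the pooled sum. Of 11 markers of granule neurons, 1 was lower and 5 were higher in the pooled sum. The low-depth unnamed cluster 6, led by Hbb-bs, Fth1 and Mbp, held Faah at 24.6 and 57.5 CPM in libraries labelled Ago2 KO and 30.9 and 77.3 CPM in WT. The part of RNA from other cells in the Faah difference was not tested. The make-up of the pooled sum also differed, since GABAergic interneurons gave 12.5% and 9.97% of its UMIs in libraries labelled Ago2 KO and 16.1% and 28.5% in WT.

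Cnr1 and Mgll gave the other 2 values with an unadjusted p under 0.05. In striatal spiny neurons Cnr1 had 29.7 and 27.7 CPM in libraries labelled Ago2 KO and 43.4 and 51.1 CPM in WT, without overlap, and a log2 difference of -0.81 (SE 0.33, adjusted p = 0.775) by edgeR. Its difference from the glutamatergic nuclei was -1.14 (SE 0.39, adjusted p = 0.687) by edgeR. In cerebellar inhibitory neurons Mgll had 10 and 15 UMIs in libraries labelled Ago2 KO and 6 and 4 UMIs in WT, or 45.5 and 62.6 CPM in libraries labelled Ago2 KO and 21.2 and 9.15 CPM in WT. The libraries labelled Ago2 KO were higher here without overlap, as for 20.3% of genes, with a log2 difference of 1.87 (SE 0.60, adjusted p = 0.838) by edgeR. Neither passed, and the Mgll value rests on few UMIs. Dagla in striatal spiny neurons had 61.4 and 86.5 CPM in libraries labelled Ago2 KO against 119.9 and 89.2 CPM in WT (edgeR adjusted p = 0.914). It was the third gene of that class with lower values in both libraries labelled Ago2 KO. Of all genes tested in that class, 14% were lower without overlap, and 35.3% did not overlap in either direction.

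In granule neurons all 6 genes were tested and none passed, and the smallest edgeR adjusted p was 0.921. Faah there had 34.3 and 35.2 CPM in libraries labelled Ago2 KO and 38.3 and 44.2 CPM in WT, and Napepld 7.44 and 8.44 CPM in libraries labelled Ago2 KO and 9.87 and 9.54 CPM in WT. Both were lower in the libraries labelled Ago2 KO without overlap, as were 19.1% of the genes tested there, and so was Daglb by a narrow margin, while Cnr1, Dagla and Mgll overlapped. The summed level of the 10 oligodendrocyte markers in granule neurons was 167 and 156 CPM in libraries labelled Ago2 KO and 279.5 and 244 CPM in WT, with 8 of 10 lower, and its part in the Faah value was not tested.

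Glia gave no difference past the threshold. Mgll in astrocytes had 341 and 421 CPM in libraries labelled Ago2 KO and 417 and 393 CPM in WT, with overlap (edgeR adjusted p = 0.936). In committed OPCs the libraries labelled Ago2 KO were above WT for Mgll without overlap, and the difference did not pass (edgeR adjusted p = 0.926). Daglb in microglia overlapped (edgeR adjusted p = 0.983), while Dagla in microglia had 53.6 and 65.4 CPM in libraries labelled Ago2 KO against 82.4 and 89.8 CPM in WT without overlap (edgeR adjusted p = 0.989). Napepld in endothelial nuclei, where it is highest, was under the filter on low counts, with 3 and 7 UMIs in libraries labelled Ago2 KO and 3 and 9 UMIs in WT. With no filter on low counts its log2 difference was 0.51 (SE 0.77, edgeR adjusted p = 0.899).

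In all kept nuclei together, edgeR called 0 of the 6 genes, DESeq2 also called 0, and edgeR called 0% of all genes. Before adjustment 1008 of 17000 genes were below 0.05 by edgeR, and of the 6 genes 1 was. The 1 was Faah, at 43.3 and 41.9 CPM in libraries labelled Ago2 KO and 49.3 and 55.9 CPM in WT, with a log2 difference of -0.33 (SE 0.14, adjusted p = 0.816) by edgeR. This sum moves with the share of each class. Glutamatergic nuclei, the main source of Faah, gave 16.7% and 17.9% of the UMIs in libraries labelled Ago2 KO and 20.7% and 26.2% in WT, and its part in the Faah value was not tested. Mgll had 159.9 and 142 CPM in libraries labelled Ago2 KO against 193 and 142 CPM in WT, Cnr1 41 and 36.2 CPM in libraries labelled Ago2 KO against 31.8 and 40.7 CPM in WT, and Dagla 63.2 and 56 CPM in libraries labelled Ago2 KO against 68.3 and 55 CPM in WT. Daglb had 36.4 and 37.8 CPM in libraries labelled Ago2 KO against 39.1 and 38.5 CPM in WT, and Napepld 7.49 and 11 CPM in libraries labelled Ago2 KO against 10.8 and 9.66 CPM in WT. Daglb was lower in both libraries labelled Ago2 KO by a small margin, and the other 4 genes overlapped. The 2 members without overlap stand against 33% of all genes, 14.6% lower in the libraries labelled Ago2 KO.

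The wider pathway was read through 42 other genes: further receptors, G proteins and partners of CB1, the drive of 2-AG synthesis, other enzymes of synthesis and breakdown, and lipid carriers. In the 12 classes 8 to 26 of them passed the filter, giving 208 pairs of gene and class. By edgeR 0 rose and 0 fell, while DESeq2 called 0 of 408 pairs. Before adjustment 14 of the 208 pairs were below 0.05 by edgeR, against 4407 of the 73292 gene tests in the 12 classes. The median log2 difference of the list lay between -0.15 and 0.06 in a class, against -0.05 to 0.02 for all tested genes. The smallest p in astrocytes was that of Plcb1, a phospholipase C that makes the diacylglycerol from which 2-AG is formed. It had 1329 and 1852 CPM in libraries labelled Ago2 KO and 2120.3 and 2469 CPM in WT, a log2 difference of -0.55 (SE 0.16, adjusted p = 0.358) by edgeR. It passed with no filter on low counts (edgeR adjusted p = 0.00268), where 118 of 19858 genes did. It also passed without the replicate 2 labelled Ago2 KO, a fit with a lone library in that group, where other genes passed too.

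The rest of the named pathway genes missed the threshold as well. In astrocytes Grm5, a glutamate receptor that drives phospholipase C, had 802 and 793 CPM in libraries labelled Ago2 KO and 577 and 686 CPM in WT, and Abhd6, a second 2-AG hydrolase, 46.6 and 52.2 CPM in libraries labelled Ago2 KO and 74.1 and 63.2 CPM in WT. In glutamatergic nuclei Chrm3, a muscarinic receptor, had 615 and 932 CPM in libraries labelled Ago2 KO and 999.6 and 1046 CPM in WT. Its edgeR adjusted p was 0.913. It passed without the replicate 2 labelled Ago2 KO, a fit with a lone library in that group, where other genes passed too. Plcb1 there had 1259.5 and 1403 CPM in libraries labelled Ago2 KO and 1418 and 1736 CPM in WT, and Gdpd1, an enzyme of another route to anandamide, 105 and 78.4 CPM in libraries labelled Ago2 KO and 79.2 and 67.9 CPM in WT. The last of these was the only one of the 3 whose groups overlapped. In GABAergic interneurons Chrm3 had 907 and 1059 CPM in libraries labelled Ago2 KO and 1292 and 1081 CPM in WT, and Plcb4, another phospholipase C, 211 and 269.5 CPM in libraries labelled Ago2 KO and 152 and 185 CPM in WT. Chrm3 was lower and Plcb4 higher in both libraries labelled Ago2 KO, each with an edgeR adjusted p of 0.983.

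The unnamed cluster 16, 251 nuclei led by Dnah12, Pax3 and Mybpc1, stood apart in the number of calls, since 11.6% of its 3323 tested genes passed. The count of calls was 387 with all libraries, 199 without the replicate 1 and 245 without the replicate 2 labelled Ago2 KO, 0 without WT replicate 1 and 0 without WT replicate 2, so it rests on both WT libraries. Its only tested member, Mgll, had 194 and 112 CPM in libraries labelled Ago2 KO and 158 and 68.5 CPM in WT, with overlap, and did not pass (edgeR adjusted p = 0.503).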

How the data were processed

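Nuclei of 4 libraries, 2 labelled Ago2 KO and 2 WT, were counted by the authors with Cell Ranger 4.0.0 on GRCm38, and Seurat 3.2.3 is also named, per the submitters' processing notes. The deposited matrices hold raw UMI counts per gene and barcode, and no barcode held fewer than 500 UMIs. The 6 genes, the marker lists and the pathway list were chosen with earlier results of these data known.

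Barcodes with at least 500 UMIs and at most 5% mitochondrial UMIs were kept, and those with the highest Scrublet scores were removed at 0.8% per 1000 barcodes, since the automatic threshold marked 0 to 3 barcodes a library. The mitochondrial maximum removed 5.64% and 6.13% of barcodes in libraries labelled Ago2 KO and 17.8% and 8.78% in WT. Nuclei were clustered with scanpy 1.11.5 (Leiden, resolution 1, 2000 variable genes, 30 components) in Python 3.11.15 and named from at least 3 detected markers. Counts were summed per library and class and tested with edgeR 4.0.16 (quasi-likelihood, TMM, filterByExpr, Benjamini-Hochberg adjustment over all tested genes) in R 4.3.3, and DESeq2 1.42.0 was an alternative. An SE is the log2 difference divided by the square root of F. CPM levels with an error are mean ± SD over libraries, and log2 differences are given ± SE. Depth limits precision, and UMI counts carry counting error beside the spread between libraries. The genotype, interaction and class fits were tested on simulated data. Named genes were the 6 members, pathway genes past the threshold, the 3 of smallest p in glutamatergic, GABAergic and astrocyte classes, and the 3 genes closest in pattern to each member. The 3′ UTR of a gene is the longest among its coding transcripts in the GENCODE mouse annotation, and miRNA sequences are from RefSeq. Some results of these steps are not reported here.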

Additional observations from a re-analysis of the deposited data

How the results depend on the processing

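Within the 12 classes, in all kept nuclei and in the GABAergic against glutamatergic comparison, the count of members called between genotypes was 0 under every alternative run, each left-out library included. The pooled inhibitory sum and its interaction, added after the values were seen, are the exceptions given with Faah above. With each library left out in turn, the lone library of a group being assumed to vary like the other group, the class contrasts passing ran from 35 to 42, and members whose top class lay above all others from 2 to 3. That last count was 1 with doublets kept and 1 with no mitochondrial maximum, and the cause was not tested. Faah in glutamatergic nuclei changed sign without the replicate 2 labelled Ago2 KO, with a log2 difference of 0.0172, against -0.0918 without the replicate 1 labelled Ago2 KO, and the cause was not tested. Labels gave both groups replicate numbers 1 and 2, but with 2 pairs and correlations of deviations from -0.147 to 0.278 they share only a number. With the replicate block, 0 members passed within classes and 0 in all kept nuclei. Calls over all genes in the 12 classes were 36 in the main test, 32 by DESeq2, 449 with no filter, 74 with no mitochondrial maximum and 287 with the replicate block. They were 373 without the replicate 1 and 1016 without the replicate 2 labelled Ago2 KO, and 104 without WT replicate 1 and 350 without WT replicate 2. Depth limits Napepld, which passed the filter in 3 of the 12 classes.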

Other observations

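The wider pathway also varied between classes. Of its 42 genes, 28 were tested across the 12 classes, and 165 of 336 pairs of gene and class passed the edgeR contrast against the mean of the other classes, 88 higher and 77 lower. Over all genes 40.9% of contrasts passed. The list was chosen with earlier results of these data known, so its count is a description.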
